A study of Mus musculus with 9 samples.

Results

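The transcripts of 7 genes tied to Parkinson disease were followed in the colon of 9 wild-type mice. The genes were Sncg, Lrrk2, Park7, Pink1, Vps35, Fbxo7 and Atp13a2, chosen by name as a synuclein and genes of familial parkinsonism, and found among the 22262 genes with a count in any mouse. The mice were female C57BL/6N animals aged 12 months that carried no transgene, kept from weaning either in a standard environment (WT_SE, mice 1, 2, 3 and 5) or in an enriched environment (WT_EE, mice 1 to 5) with more companions, running wheels, tunnels and other objects. A piece of the upper colon was flushed, rinsed and frozen whole, so that epithelium, muscle, nerve plexus, vessels and attached fat were read together. Mice of one environment shared cages, and the effect of a cage and that of the environment cannot be told apart. Polyadenylated RNA was read next to its 3′ end, and each molecule was counted once by its molecular identifier, so that a count does not grow with transcript length and levels of different genes can be set side by side. Totals per mouse ranged from 299062 to 383401 counts in WT_SE and from 295535 to 454043 in WT_EE.

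Most of these genes act on the care of membranes and mitochondria. Pink1 encodes a kinase that gathers on damaged mitochondria and starts their removal by autophagy. Vps35 is the core of retromer, the coat that carries receptors back from endosomes. Lrrk2 encodes a kinase of Rab proteins on endosomes and lysosomes, and Atp13a2 encodes a lysosomal polyamine exporter. Park7 encodes DJ-1, a protein of the defence against oxidants. Fbxo7 encodes an F-box protein, which brings substrates to a ubiquitin ligase, and Sncg encodes gamma-synuclein, a small protein known from peripheral nerve endings and from fat cells. Nerve cells of the gut wall are among the cells in which Parkinson disease is studied outside the brain.

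All 7 genes had counts in every mouse. Vps35 was the highest of them at 229 ± 26.4 normalized count-per-million (CPM; SD, n = 9), followed by Pink1 at 141 ± 20.2, Park7 at 112 ± 17.7 and Fbxo7 at 37.3 ± 14.2 CPM. Below these stood Sncg at 19.4 ± 8.98, Atp13a2 at 14.8 ± 5.62 and Lrrk2 at 9.66 ± 6.66 CPM. Among 22255 gene symbols ranked by mean level, Vps35 took place 838 and Lrrk2 place 11764, so that the set spanned the upper part and the middle of the colon transcriptome.

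Neighbours in this order were compared within mice by a two-sided exact sign-flip permutation test of log2(CPM + 1), whose smallest possible p is 0.00391 with 9 mice, with Benjamini-Hochberg adjustment over the 6 pairs. Vps35 was above Pink1 in 9 of 9 mice, and Park7 was above Fbxo7 in 9 of 9 (adjusted p = 0.0117 for each, exact permutation test). Pink1 was above Park7 in 8 of 9 mice and Fbxo7 above Sncg in 7 of 9 (adjusted p = 0.0293 for each, exact permutation test). Atp13a2 was above Lrrk2 in 6 of 9 mice (adjusted p = 0.0375, exact permutation test). Both genes had equal counts in WT_SE mouse 1 and in WT_EE mouse 2, and Lrrk2 had 3 counts or fewer in 6 of 9 mice. Sncg and Atp13a2 did not differ beyond their spread, with Sncg higher in 6 of 9 mice (adjusted p = 0.266, exact permutation test). The order of the means stayed the same with each mouse left out in turn, while the number of neighbouring pairs past the threshold ranged from 2 to 5, with 2 left when WT_SE mouse 2 or 5 or WT_EE mouse 1 or 3 was omitted.

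**Figure D1:**
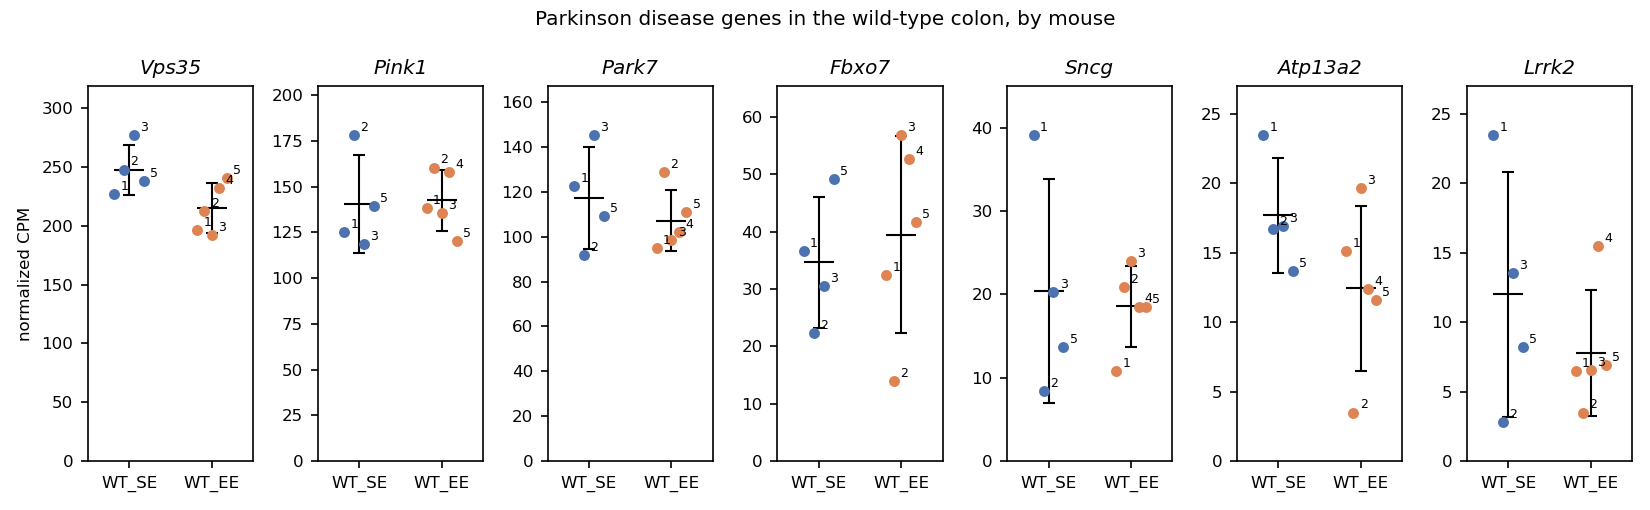
Normalized level in count-per-million (vertical axes, each from 0) of the 7 genes in each mouse (points, numbered by mouse) of WT_SE (4 mice) and WT_EE (5 mice), with horizontal lines for group means and bars for the SD. The values of the 2 environments overlapped for every gene, and WT_SE mouse 1 had the highest Sncg and Lrrk2 of the 9 mice.

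The comparison of environments asks whether housing was accompanied by another level of these transcripts in mice without the transgene. None of the 7 genes passed an unadjusted p of 0.05 or an adjusted p of 0.05 in edgeR's quasi-likelihood test, and for none were the 5 WT_EE mice all above or all below the 4 WT_SE mice. DESeq2 and limma-voom likewise called 0 of the 7 at an unadjusted p under 0.05. Among all 17441 genes tested, 7.65% had an unadjusted p under 0.05, 0.0401% passed the adjustment, and 2.58% showed groups without overlap, so that a count of 0 among 7 lies near the background. The median log2 fold change of the 7 genes, WT_EE over WT_SE, was -0.16, with 2 of 7 above 0, against 0.01 for all genes tested. Of all genes tested, 51.1% had a log2 fold change above 0. A p above the threshold does not show equal levels, and the 95% intervals below give the range of sizes that these 9 mice allow.

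For the mitochondrial genes the intervals were narrow. Pink1 had 48, 64, 35 and 51 counts in WT_SE mice 1, 2, 3 and 5, and 64, 46, 62, 51 and 52 in WT_EE mice 1 to 5. It averaged 140 ± 26.7 CPM in WT_SE (SD, n = 4) and 142 ± 16.7 in WT_EE (SD, n = 5). The log2 fold change came to 0.0036 ± 0.16 (SE), with a 95% interval from -0.33 to 0.33 (edgeR adjusted p = 0.997), or 0.797-fold to 1.26-fold. The highest Pink1 level, 178 CPM, was in WT_SE mouse 2 and the lowest, 118 CPM, in WT_SE mouse 3, so the standard environment held both extremes.

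Park7 had 47, 33, 43 and 40 counts in WT_SE and 44, 37, 45, 33 and 48 in WT_EE. It averaged 117 ± 22.6 CPM in WT_SE (SD, n = 4) and 107 ± 13.6 in WT_EE (SD, n = 5). Its log2 fold change was -0.14 ± 0.18 (SE), with an interval from -0.50 to 0.23 (edgeR adjusted p = 0.915). Every WT_EE mouse lay inside the range of the WT_SE mice, from 91.9 to 145 CPM. Park7 and Pink1 varied between mice by no more than counting predicts, with a variance 0.957 and 1.02 times that of a pure count, and the median for genes counted alike was 1.34 and 1.38.

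None of the genes of endosomes and lysosomes passed the test. Vps35 had 87, 89, 82 and 87 counts in WT_SE and 91, 61, 88, 75 and 104 in WT_EE, with averages of 248 ± 21.6 CPM for WT_SE (SD, n = 4) and 215 ± 21.2 for WT_EE (SD, n = 5). The log2 fold change was -0.20 ± 0.14 (SE), with an interval from -0.48 to 0.08 (edgeR adjusted p = 0.747), and the exact permutation test of 4 against 5 mice, whose smallest possible p is 0.00794, gave p = 0.0714. It was the smallest p of the 7 genes in both tests, and WT_EE mice 1, 2 and 3 were below all WT_SE mice while mice 4 and 5 were inside their range. Counts of genes counted like Vps35 rose less than in proportion to the library total, with a log-log slope of 0.719. For genes counted like the other members the slope ran from 1.09 (Pink1) to 1.35 (Fbxo7), with 1.21 for Park7. The r of normalized Vps35 with the log2 total was -0.58 over the 9 mice. The same r was -0.65 for Park7, -0.28 for Pink1, -0.09 for Sncg, -0.03 for Lrrk2, 0.54 for Fbxo7 and 0.49 for Atp13a2. Library totals had a median of 362850 in WT_SE and 426436 in WT_EE, and their part in the values of these genes was not tested.

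Atp13a2 had 9, 6, 5 and 5 counts in WT_SE and 7, 1, 9, 4 and 5 in WT_EE. It averaged 17.7 ± 4.14 CPM in WT_SE (SD, n = 4) and 12.4 ± 5.92 in WT_EE (SD, n = 5), with a log2 fold change of -0.43 ± 0.44 (SE) and an interval from -1.33 to 0.46 (edgeR adjusted p = 0.863). The single count of WT_EE mouse 2 fell below the 3 counts taken as the detection floor, which equalled 6.61 to 10.2 CPM in these libraries.

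Lrrk2 was near that floor throughout, with 9, 1, 4 and 3 counts in WT_SE and 3, 1, 3, 5 and 3 in WT_EE. In 6 of the 9 mice it had 3 counts or fewer, 2 in WT_SE and 4 in WT_EE. Its log2 fold change was -0.63 ± 0.58 (SE), with an interval from -1.81 to 0.54 (edgeR adjusted p = 0.843), or from 3.50-fold lower to 1.46-fold higher, and no difference was detectable at this depth. WT_SE mouse 1 held 9 of the 17 counts of its group, and without it the log2 fold change was -0.04.

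Fbxo7, Lrrk2 and Sncg had a variance between mice 1.86, 1.70 and 1.62 times that of a pure count. Of the genes counted alike, 23.8%, 20.6% and 29.3% varied at least as much, so that this spread was not unusual. Fbxo7 had 14, 8, 9 and 18 counts in WT_SE and 15, 4, 26, 17 and 18 in WT_EE, with averages of 34.6 ± 11.3 CPM for WT_SE (SD, n = 4) and 39.5 ± 17.2 for WT_EE (SD, n = 5). The log2 fold change was 0.21 ± 0.32 (SE), with an interval from -0.43 to 0.85 (edgeR adjusted p = 0.915). WT_EE mice held both the lowest Fbxo7 level, 13.9 CPM in mouse 2, and the highest, 56.8 CPM in mouse 3.

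Sncg had 15, 3, 6 and 5 counts in WT_SE and 5, 6, 11, 6 and 8 in WT_EE. It averaged 20.4 ± 13.4 CPM in WT_SE (SD, n = 4) and 18.6 ± 4.90 in WT_EE (SD, n = 5). The log2 fold change was -0.16 ± 0.42 (SE, edgeR adjusted p = 0.962), with a 95% interval from 2.01-fold lower to 1.61-fold higher. Both the highest level, 39.2 CPM in mouse 1, and the lowest, 8.35 CPM in mouse 2, were in WT_SE. The sister gene Sncb, which encodes beta-synuclein, had 2 counts in all 9 mice together, both in WT_EE mouse 4.

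**Figure D2:**
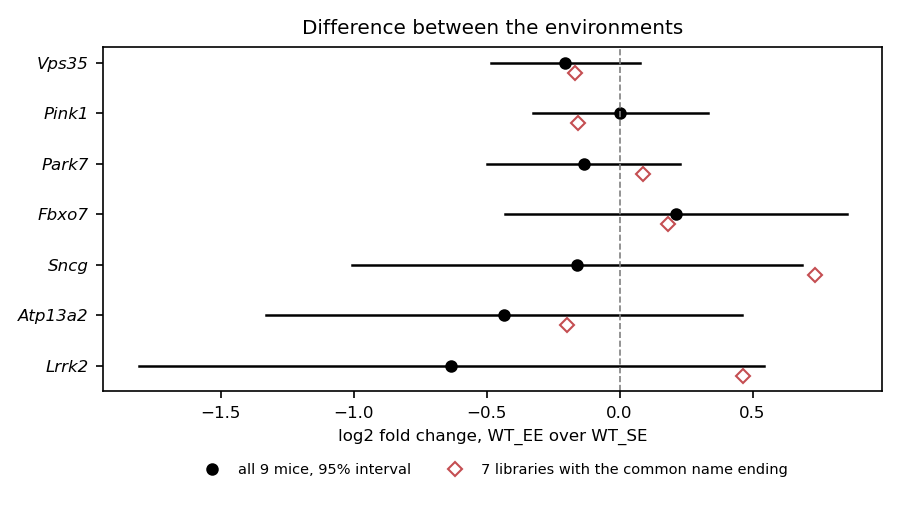
Log2 fold change of the 7 genes, WT_EE over WT_SE, in edgeR's quasi-likelihood fit of all 9 mice (black points, lines for 95% intervals) and in the 7 libraries that share one name ending (red diamonds, without intervals). Every black interval crosses 0, and the diamonds of Sncg, Lrrk2, Park7 and Pink1 lie on the other side of 0 from their points.

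In their names, the libraries made from WT_SE mice 1 and 3 end differently from the other 7, and no WT_EE library has that ending, so that it cannot be told apart from those 2 mice. With the 7 libraries of the common ending alone, the log2 fold change of Sncg turned from -0.16 to 0.73 (edgeR, unadjusted p = 0.199), that of Lrrk2 from -0.63 to 0.47, that of Park7 from -0.14 to 0.09 and that of Pink1 from 0.0036 to -0.16. Vps35, Fbxo7 and Atp13a2 kept their sign, at -0.17, 0.18 and -0.20. None of the 7 genes was called in these 7 libraries, and without WT_SE mouse 1 alone Sncg stood at 0.41. No direction is therefore given for Sncg, Lrrk2, Park7 or Pink1.

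Bulk tissue mixes cell types, and fewer cells of a type cannot be told apart from less RNA per cell. Each gene was therefore set against summed markers of 12 lists of cell types and of position along the gut, over the 9 mice, on the log2(CPM + 1) scale. Of the 84 pairs, 5 had an unadjusted exact permutation p of Pearson's r under 0.05 and 0 had an adjusted p under 0.05. The smallest adjusted p was 0.131, shared by Sncg with fat cell markers and Pink1 with enteric neuron markers.

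Sncg followed the fat cell list. Pearson's r was 0.86 (exact permutation p = 0.00311, adjusted p = 0.131) and Spearman's rank correlation was 0.95 (exact permutation p = 0.000353, adjusted p = 0.0296), over 9 mice. The ranks of Sncg rest on 3 to 15 counts per mouse. WT_SE mouse 3 and WT_EE mice 2 and 4 each had 6 counts, and WT_SE mouse 5 and WT_EE mouse 1 each had 5. Among mice with equal counts, only the scaling by library size set the order. The summed fat cell markers were 1023, 175, 389 and 183 CPM in WT_SE mice 1, 2, 3 and 5, and 287, 436, 597, 331 and 199 CPM in WT_EE mice 1 to 5. WT_SE mouse 1, highest in Sncg, was also highest in this sum, and WT_SE mouse 2 was lowest in both. The defining genes ranged as widely, since Adipoq, which encodes the fat cell hormone adiponectin, had 70, 0, 15 and 0 counts in WT_SE and 7, 9, 29, 7 and 0 in WT_EE. Cfd, which encodes adipsin, had 91, 0, 17 and 0 counts in WT_SE and 16, 21, 66, 16 and 0 in WT_EE. All 11 fat cell genes with a count had a positive r with Sncg, with a median of 0.68, a highest value of 0.92 for Fabp4, a fatty acid carrier, and a lowest of 0.12 for Pnpla2, a lipase that other tissues also use. Of the 12 listed genes, Ucp1 had no count and Cidea had 1 count at most in a mouse. Without the mice farthest from the median sum, WT_SE mice 1 and 2, r was 0.64, and with the environment means removed it was 0.86. In the 7 libraries of the common name ending r was 0.72 (exact permutation p = 0.0718), so the relation did not pass the threshold there. Sncg had an r of -0.23 with the enteric neuron list (exact permutation p = 0.562, adjusted p = 0.926).

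Pink1 ran with the enteric neuron list over 9 mice, but neither adjusted p was under 0.05. Pearson's r was 0.86 (exact permutation p = 0.00301, adjusted p = 0.131) and Spearman's rank correlation was 0.83 (exact permutation p = 0.00827, adjusted p = 0.231). The summed neuron markers were 511.6, 819, 524 and 569 CPM in WT_SE mice 1, 2, 3 and 5, and 583, 903, 765, 866 and 504 CPM in WT_EE mice 1 to 5. The 3 mice with the highest Pink1, WT_SE mouse 2 and WT_EE mice 2 and 4, were also the 3 with the highest sums. Of the 18 neuron genes, 16 had a positive r with Pink1 and 12 had an r over 0.5, with a median of 0.55. Syt1 and Snap25, 2 genes of synaptic vesicle release, had an r of 0.83 and 0.77, while Vip, a neuropeptide of inhibitory motor neurons, had -0.69 and Nefm, a neurofilament, had -0.24. The value stayed at 0.82 without the mice farthest from the median sum, WT_EE mice 2 and 4, at 0.90 with environment means removed, and at 0.81 in the 7 libraries of the common ending (exact permutation p = 0.0333). Pink1 also had an r of 0.56 with fibroblast, 0.55 with endothelial and 0.55 with enteric glia markers (exact permutation test, adjusted p = 0.609 for each). With fat cell, enteroendocrine and B cell markers its r was negative, at -0.32, -0.66 and -0.11.

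**Figure D3:**
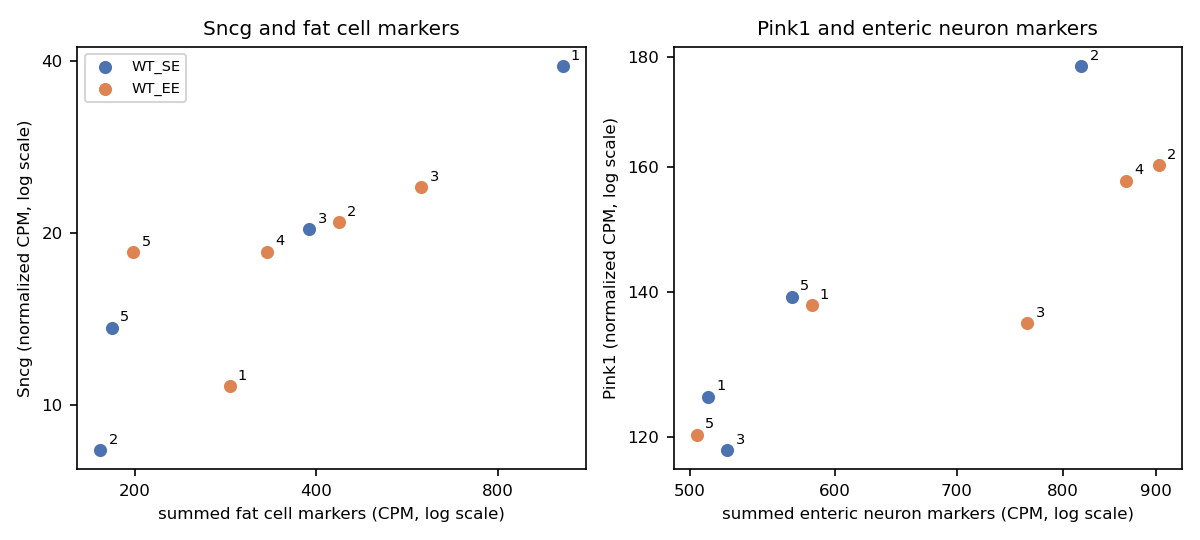
Left, Sncg against summed fat cell markers, and right, Pink1 against summed enteric neuron markers, in normalized count-per-million on log axes, 1 point per mouse, blue for WT_SE and orange for WT_EE, numbered by mouse. Both relations run upward over the 9 mice (r = 0.86 in each), and WT_SE mouse 1 stands alone at the upper right of the left panel.

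The other pairs with an unadjusted p of Pearson's r under 0.05 all held Atp13a2, and were its relations with smooth muscle (r = -0.75, exact permutation p = 0.0103, adjusted p = 0.289), fibroblast (r = -0.74, adjusted p = 0.540) and B cell markers (r = 0.65, adjusted p = 0.609), by the same permutation test. Without WT_EE mice 2 and 4 they were -0.40, 0.09 and 0.36, so that they rested largely on these mice, and WT_EE mouse 2 gave a single Atp13a2 count. By rank correlation, Lrrk2 with T cell markers (-0.83, exact permutation p = 0.00827, adjusted p = 0.231) and Pink1 with enteroendocrine markers (-0.70, exact permutation p = 0.0433, adjusted p = 0.727) also had an unadjusted p under 0.05, at a Pearson r of -0.63 and -0.66. Lrrk2 had 3 counts or fewer in 6 of these mice. Each environment had too few mice for an r of its own. Between the environments, the fat cell sums ranged from 175 to 1023 CPM in WT_SE and from 199 to 597 CPM in WT_EE (exact permutation p = 0.794), and the neuron sums from 511.6 to 819 and from 504 to 903 CPM (exact permutation p = 0.317). The B cell sums, from 3.38 to 73.1 CPM in WT_SE and from 0 to 10.8 CPM in WT_EE, had the smallest p of the 12 lists (exact permutation p = 0.0476, not adjusted).

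Genes whose pattern over the 9 mice was most like that of a member were sought among 5812 genes with a mean of at least 20 counts. For Pink1 the highest Pearson r was that of Gabarapl1, at 0.95, followed by Plekha7 at 0.94 and Nisch at 0.92. Gabarapl1 encodes an ATG8 family protein of the autophagosome membrane, and had 35, 45, 25 and 34 counts in WT_SE and 46, 35, 40, 39 and 36 in WT_EE. Like Pink1, it had its highest normalized level in WT_SE mouse 2, and its lowest levels were in WT_EE mouse 5 and WT_SE mouse 3. For Park7 the highest values were those of Trim30d, Sdc4 and Trim16, from 0.92 to 0.95, and for Vps35 those of Wdr43, Mia2 and Slk, from 0.89 to 0.90. For Fbxo7 they were Nudt19, Pla2g16 and Use1, each at 0.93. As the highest of 5812 values over 9 mice, these are descriptions without a test.

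Genes that work beside the 7 were compared between the environments in 7 lists, in the same edgeR fit. Of their 192 genes tested, 20 or 10.4% passed an unadjusted p of 0.05, against 7.65% of all genes tested, and 0 had an adjusted p under 0.05 in edgeR. The share in single lists ranged from 4.55% to 16.7%, which is 1 to 4 genes a list, so these counts lie near the background and the genes below are given as single values, not as changes of a pathway. Of the 24 retromer and endosome sorting genes tested, 1 rose and 2 fell, or 12.5% against the background of 7.65%. Snx3, a sorting nexin that recruits retromer, rose from 139 ± 26.0 CPM (SD, n = 4) to 201 ± 22.2 CPM (SD, n = 5), a log2 fold change of 0.52 ± 0.16 (SE, edgeR unadjusted p = 0.00169, adjusted p = 0.229), with every WT_EE mouse above every WT_SE mouse. Snx27, which links retromer to its cargo, fell by 0.64 on the log2 scale, and Snx6, a partner of retromer in tubule formation, fell by 0.41. The direct partners of Vps35 in the retromer core were not called in edgeR, with log2 fold changes of -0.29 for Vps26a, 0.02 for Vps26b and 0.0062 for Vps29. The exact permutation test of 4 against 5 mice gave p = 0.0476 for Vps26a, not adjusted, and passed 0.05 for neither Vps26b nor Vps29. The median of the list was 0.01, as for all genes tested.

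Of the 39 mitophagy genes tested, 3 rose and 1 fell, or 10.3% against 7.65%, with a list median of 0.03. Rhot2, whose product tethers mitochondria to motors, rose by 0.52, Tomm5, a small subunit of the outer membrane import pore, by 1.12, from 1 to 4 counts per WT_SE mouse to 2 to 15 per WT_EE mouse, and Ulk1, the kinase that starts autophagy, by 0.56. Usp15, a deubiquitinase that opposes mitophagy, fell by 0.50 without overlap of the groups, from 121 ± 8.16 CPM (SD, n = 4) to 84.8 ± 16.1 (SD, n = 5; edgeR unadjusted p = 0.0098, adjusted p = 0.424). Tomm7, needed for Pink1 to settle on the outer membrane, and Parl, the protease that cuts it, were not called, at -0.21 and 0.15.

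Of the 27 LRRK2 substrates and partners tested, 3 rose and 0 fell at an unadjusted edgeR p under 0.05 (0 adjusted), or 11.1% against 7.65%, with a list median of 0.04. Rab32, a Rab protein that binds LRRK2, rose by 0.50, and Ppm1h, the phosphatase that reverses LRRK2's action on Rab proteins, rose by 0.73. Rilpl1, which binds phosphorylated Rab proteins, had no more than 3 counts in any WT_SE mouse and 3 to 12 in those of WT_EE. Its WT_EE mean was 2.02 times the floor of 3 counts per library, averaged over the WT_SE libraries. WT_EE mouse 4 had 12 counts, against 3 to 8 in the other WT_EE mice, and without that mouse Rilpl1 was not called. The Rab substrates themselves were not called in edgeR, with -0.05 for Rab10, 0.21 for Rab12 and -0.29 for Rab29, nor was the related kinase gene Lrrk1, at 0.08. By the exact permutation test of 4 against 5 mice, not adjusted, p was 0.0397 for Rab29, 0.825 for Rab10, 0.611 for Rab12 and 0.754 for Lrrk1.

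Of the 34 lysosomal and P5 ATPase genes tested, 1 rose and 1 fell, or 5.88% against 7.65%, with a list median of -0.03. The protease gene Ctsz rose by 0.40 and the protease gene Ctsd fell by 0.31, each without overlap of the groups. Atp13a1 and Atp13a3, related to Atp13a2, were not called, at 0.11 and 0.12. Of the 24 genes of oxidative defence tested, 2 rose and 2 fell, or 16.7% against 7.65%, and the list median was -0.13. Gclc and Gclm, the subunits of the enzyme that limits glutathione synthesis, fell by 0.49 and 0.45. Gatd1, whose product is related to DJ-1, rose by 0.98 from 15.4 ± 7.70 CPM (SD, n = 4) to 29.5 ± 3.48 CPM (SD, n = 5), without overlap. Txn1, thioredoxin, rose by 0.41, with 256 counts in WT_EE mouse 5 against 138 to 172 in the other WT_EE mice. Without that mouse Txn1 was not called.

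Among 22 ubiquitin ligase genes, Cul1, the scaffold of the ligase that FBXO7 joins, fell by 0.31 (edgeR unadjusted p = 0.0496) and no gene rose, which makes 4.55% against 7.65%. Skp1a, the adaptor that holds the F-box, and Psmf1, a proteasome inhibitor that binds FBXO7, were not called, at -0.11 and 0.07. Among the 22 other genes tied to parkinsonism that were tested, 3 were called, or 13.6% against 7.65%. Gpnmb, a glycoprotein of lysosomes and macrophages, was counted 1 to 2 times per WT_SE mouse and 4 to 9 times per WT_EE mouse. Its WT_EE mean was 1.97 times the floor, averaged over the WT_SE libraries. Lrp10, a receptor that cycles through endosomes, fell by 0.50, and Dnajc13, a chaperone on endosomes, fell by 0.34.

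**Figure D4:**
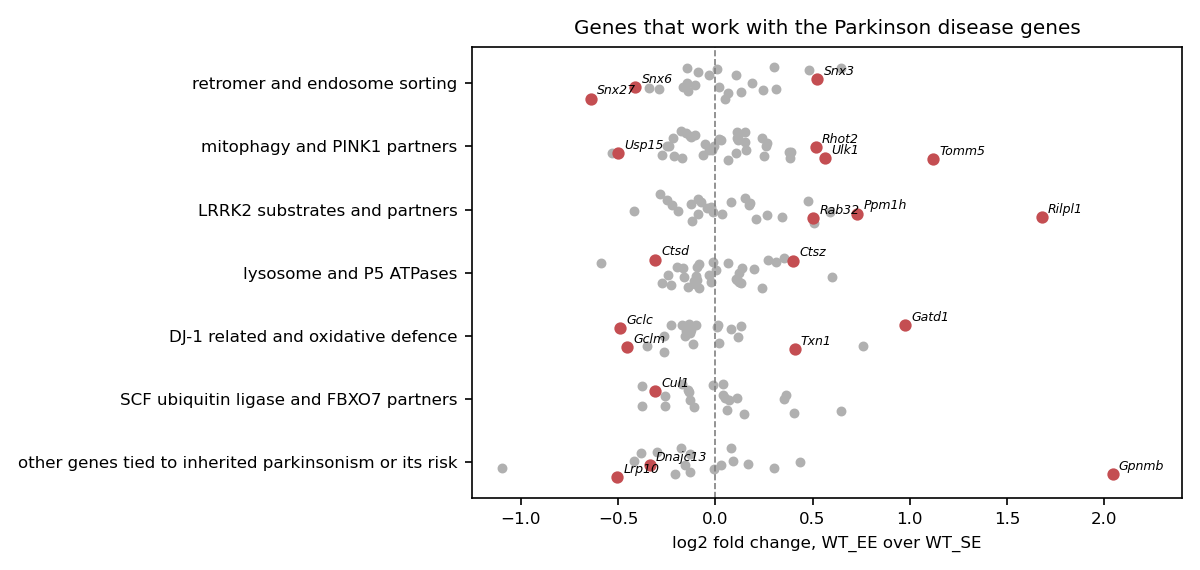
Log2 fold change, WT_EE over WT_SE, of the genes in the 7 lists that had a mean of at least 1 count per mouse (grey), with those of an unadjusted edgeR p under 0.05 in red and named; height within a row has no meaning. Calls lie on both sides of 0 in 5 of the 7 lists, and the fitted values of Rilpl1 and Gpnmb rest on WT_SE counts at or under the floor.

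Of the 20 called genes, 5 were also called in the 7 libraries of the common ending, namely Snx3, Usp15, Txn1, Lrp10 and Gpnmb. That setting leaves 2 WT_SE mice, and all 15 genes that lost the call kept their sign. The log2 fold change of Ctsd was -0.31 in both settings, and Rab32 and Ppm1h stood at 0.56 and 0.68 in the 7 libraries, so that their lost calls came with larger p-values (edgeR unadjusted p = 0.0913, 0.0856 and 0.0577) and not with a much smaller difference. All the other genes that lost the call came closer to 0, and kept from 0.29 (Snx6) to 0.79 (Tomm5) of their log2 fold change. Snx27 went from -0.64 to -0.35 and Ulk1 from 0.56 to 0.32, and Snx6 and Gclm stood at -0.12 and -0.20. Snx3, Usp15 and Gpnmb kept the call in all settings in which they were tested, each mouse left out in turn included, and Cul1 lost it in 16 of 21 settings. Some called genes did not pass the exact permutation test of 4 against 5 mice, taken without adjustment. The exact permutation p was 0.0556 for Snx6 and Lrp10, 0.0635 for Ulk1 and Gclc, 0.0794 for Gclm and 0.0873 for Ppm1h. For Rhot2, Txn1 and Tomm5 the exact permutation p was 0.0952, 0.143 and 0.175. The other called genes had an exact permutation p under 0.05.

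On GRCm38, with positions from GENCODE release M21 counted from 1, chromosome 4 holds Park7 (150897133 to 150914437, minus strand), Pink1 (138313409 to 138326307, minus strand) and Atp13a2 (140986873 to 141007330, plus strand). Sncg is on chromosome 14 (34370274 to 34374789, minus strand) and Lrrk2 on chromosome 15 (91673175 to 91816120, plus strand). Vps35 is on chromosome 8 (85260392 to 85299802, minus strand) and Fbxo7 on chromosome 10 (86021972 to 86051873, plus strand). All are protein-coding genes. The 5′ end of Vps35 overlaps that of Orc6 on the other strand, which had 33 counts in all, and the start of Fbxo7 overlaps an antisense gene with 2 counts, so that at most a small part of either gene's counts could be shared with a neighbour. Sncg, Lrrk2, Park7 and Atp13a2 overlap no annotated gene, and the genes inside Pink1 are miRNA genes with 0 counts.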

How the data were processed

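RNA of the upper colon of 9 wild-type mice was analysed (QuantSeq 3′ libraries, Lexogen). The authors deposited, for each mouse, the count of molecules on each gene, which was used as whole-number raw data. The submitters' processing notes name fastp 0.20.0, STAR 2.7.0f, featureCounts 1.6.0 from Subread, UMI-tools and GRCm38.p6, while the study's methods name another STAR version. The strand setting and annotation release of the counting are not given in the sources used here. Groups came from the sample labels.

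Genes absent from a mouse were set to 0. Symbols and positions came from GENCODE release M21 for 22256 of 22262 genes. A gene was tested if any library reached 4 CPM, which left 17441 genes. They were fitted in R 4.3.3 with edgeR 4.0.16 (TMM, quasi-likelihood F test, environment as the only term, Benjamini-Hochberg adjustment over all genes). The biological coefficient of variation was 15.1%. Alternatives used DESeq2 1.42.0, limma 3.58.1 (voom), other filters, normalizations and covariates, and each mouse left out. Exact permutation tests were two-sided and used numpy 2.4.6, scipy 1.17.1 and pandas 2.3.3 under python 3.11.15, and figures matplotlib 3.10.9. The fit was tested on simulated data with 200 changed genes. Chi-square per degree of freedom between mice of one environment was 1.17 to 2.30, so no library was a copy of another in its environment. In WT_EE it was 1.17 for mice 1 and 3 and also for mice 2 and 4. Between mice 1 or 3 and mice 2 or 4 it was 1.88 to 2.30, so the WT_EE mice were not equally unlike. Pairs across the environments were not compared, and these values do not test whether libraries came from the same RNA. The labels number the samples as separate mice. The floor of 3 counts covers counting error only, while the 95% intervals of fold changes come from the edgeR fit and include the dispersion between mice.

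The members and lists were chosen with earlier results of these data known. Named genes were the 7 members, up to 5 genes per list with an unadjusted p under 0.05, direct partners and paralogs of the members, and the 3 genes most like each member with a mean of at least 10 counts. Alternatives for the relations with fat and neuron markers were chosen after seeing the data.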

Additional observations from a re-analysis of the deposited data

Results flagged for a closer look

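Lrrk2 in WT_EE mouse 4 stood apart from the other mice of its group, at 15.5 CPM against 3.49 to 6.94 CPM in the other 4, by Dixon's 95% criterion. The value rests on 5 counts against 1 to 3. Of 38 groups examined in this way this was the only one to stand apart, where chance gives about 1.9.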

How the results depend on the processing

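The number of the 7 genes called was 0 under all alternatives, with each mouse left out in turn (0 to 0) included. The number of all genes called was 804 with edgeR's filterByExpr, 643 with the DESeq2 Wald test, 688 with the name ending as a covariate, 680 in the 7 libraries of the common ending and 410 at an unadjusted p under 0.01, against 1334. It ranged from 899, without WT_SE mouse 3, to 1581 with mice left out in turn. The share of calls higher in WT_EE was 45.0% after upper quartile normalization and 56.3% with TMM. The filterByExpr filter left Sncg, Lrrk2 and Atp13a2 untested.

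Log2 fold changes of uncalled genes crossed 0 as follows, and the cause was not tested. With the name ending as a covariate and with the 7 libraries of the common ending, Sncg was 0.72 and 0.73, Lrrk2 0.45 and 0.47, Park7 0.076 and 0.088, Pink1 -0.17 and -0.16, Lrrk1 -0.32 and -0.31, Rab10 0.0097 and 0.021, and Vps29 -0.034 and -0.021, while Vps26b was -0.0016 with the covariate. Upper quartile normalization gave -0.041 for Pink1, -0.026 for Vps26b and -0.042 for Vps29. DESeq2 size factors gave -0.0039 for Pink1 and -0.0023 for Vps29, and the DESeq2 Wald test -0.0011 and -0.0032. With the neuron marker sum as a covariate Pink1 was -0.12 and Lrrk1 -0.020. On the log2(CPM + 1) scale the exact permutation p of Sncg was 0.944, with the other sign. With mice left out in turn, the ranges were -0.42 to 0.41 for Sncg, -0.054 to 0.14 for Pink1, -0.084 to 0.28 for Atp13a1, -0.13 to 0.27 for Lrrk1, -0.089 to 0.16 for Psmf1, -0.13 to 0.022 for Rab10, -0.014 to 0.34 for Rab12, -0.16 to 0.26 for Vps26b and -0.080 to 0.084 for Vps29.

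Mouse numbers are shared between the environments but mark different animals. The correlations of same-numbered mice were -0.02, 0.05, 0.15 and 0.15, so the numbers were not taken to pair mice. With the number as a replicate block 1149 genes and 0 of the 7 were called, and Pink1 was -0.0034 and Vps29 -0.0025.

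The order of levels kept 2 to 5 neighbouring pairs past the threshold with mice left out. The r of Sncg with fat markers was 0.80 without Fabp4 and Pnpla2, 0.73 with Adipoq alone, 0.74 (without WT_SE mouse 1) to 0.93 with mice left out, and 0.72 in the 7 libraries, where it missed the threshold. That of Pink1 with neuron markers was 0.84 without the 3 most counted markers and 0.83 to 0.91 with mice left out. At 1 to 9 counts per mouse, the 95% intervals ran from 3.50-fold lower to 1.46-fold higher for Lrrk2 and from 2.51-fold lower to 1.38-fold higher for Atp13a2.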
